A study of Homo sapiens with 16 samples.

Results

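Culture in low glucose from Day 16 to Day 30 of cardiomyocytes made from human pluripotent stem cells (hPSC-CMs) was described from 8 RNA-seq libraries of the 16 in the series. Day 16 RPMI/B27 (4 libraries) is the starting point, cells differentiated from WTC11 human induced pluripotent stem cells and kept in RPMI 1640 medium with the B27 supplement at its standard, supraphysiologic glucose. Day 30 RPMI_glcM/B27 (4 libraries) is the same medium with glucose lowered to 5 mM, with B27 present throughout. The 16322 genes described here are those with a mean of at least 1 TPM, a read abundance corrected for gene length and set to the same total in each library, over the 8 libraries, of 43388 genes listed, and the choice used the level and not the difference between the groups. Genes nearly absent from a group, such as SHOX2, WNT2 and SPP1 below, passed this limit only through the other group. Their difference is thus partly fixed by the choice. Day 30 RPMI/B27 (4 libraries at standard glucose) and Day 30 HPLM/B27 (4 libraries in human plasma-like medium, which has a physiologic glucose level) are used only where they show whether a change was shared. The cardiac progenitors had been frozen and thawed, and all libraries come from wells of a single differentiation of a single line, so the spread between libraries is a spread between wells and not between donors or differentiations. The cultures were mostly but not purely cardiomyocytes. In bulk RNA, fewer cells of a type and less RNA per cell cannot be told apart. The sequence of days and the change of glucose come together in this comparison, so that Day 30 RPMI/B27 is needed to set one beside the other.

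Cardiomyocytes that leave the fetal stage are known to exchange sarcomere isoforms, to leave the cell cycle, to build up calcium stores and to move from glycolysis to oxidation of fatty acids. Among the contractile proteins the regulatory light chain MYL2 marks ventricular cells, MYL7 is the atrial and early form, and troponin I changes from the slow skeletal form TNNI1 to the cardiac form TNNI3. Glucose acts on transcription mainly through the sugar-sensing factors of the MondoA and ChREBP family, whose best known targets are TXNIP and ARRDC4, arrestin-like proteins that limit glucose uptake.

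The 4 Day 16 libraries held 9801418 to 11269191 reads on genes and the 4 Day 30 RPMI_glcM/B27 libraries 7744768 to 10048729, recovered as whole numbers from the TPM of each gene. The mitochondrial ribosomal RNA RNR1 lay between 49.5 and 6806 TPM in these 8 libraries, exceeding 1000 TPM in Day 16 replicate 4 and in Day 30 RPMI_glcM/B27 replicates 3 and 4. RNR1 was at 1545, 619, 14387 and 29276 TPM in Day 30 RPMI/B27 replicates 1 to 4. In Day 30 HPLM/B27 it was at 6359, 138, 203 and 5889 TPM. Another mitochondrial ribosomal RNA, RNR2, took 41.4% to 43.9% of the TPM at Day 16 and 42.0% to 45.5% in Day 30 RPMI_glcM/B27. The small nuclear RNA RN7SK took 8.76% to 10.4% of the TPM at Day 16 and 13.0% to 13.6% in Day 30 RPMI_glcM/B27, without overlap. Because such abundant RNAs push the TPM of the other genes down, TPM values are given below after rescaling each library by a median-of-ratios factor (0.872 to 1.33 in the 8 libraries), unless called as deposited. Log2 correlations between libraries were 0.971 to 0.989 within a group and 0.943 to 0.957 between the groups. Day 16 replicate 2 lay far from the other 3 Day 16 libraries for 8 of the genes named below, more often than any other library. Several genes named below overlap another gene, among them PLN (within CEP85L), TPI1 (SPSB2), ESRRA (TRMT112), NPPA (NPPA-AS1) and DDIT3 (MARS1), and whether the counting separated their reads by strand is not known.

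Of the 16322 genes, 2248 (13.8%) rose and 2273 (13.9%) fell from Day 16 to Day 30 RPMI_glcM/B27 (limma on log2(TPM + 1), Benjamini-Hochberg adjusted p under 0.05). Without overlap between the 4 and 4 libraries, 2478 genes (15.2%) were higher and 2426 (14.9%) were lower. Across all genes the log2 fold change had a median of 0.01. A log2 fold change of at least 1 was reached by 332 of the genes that rose and 393 of those that fell. The split depended on the scale. With the TPM as deposited the median of all genes was -0.22, and 532 genes rose while 2950 fell. Scaling each library to the same sum of all genes other than RNR1, RNR2 and RN7SK gave 1126 and 2554. For this reason each gene list below is given with its counts from Day 16 on both the rescaled and the deposited scale. Beside these counts stand the 13.8% of all genes that rose and the 13.9% that fell, or 532 and 2950 genes as deposited. Without the 3 libraries above 1000 TPM of RNR1, 1129 genes rose and 1184 fell, and 18 of the 136 genes named below lost their call. List counts against Day 30 RPMI/B27 are on the rescaled scale only. As deposited, the genes called in that comparison went from 1042 higher and 888 lower to 215 and 130.

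**Figure D1:**
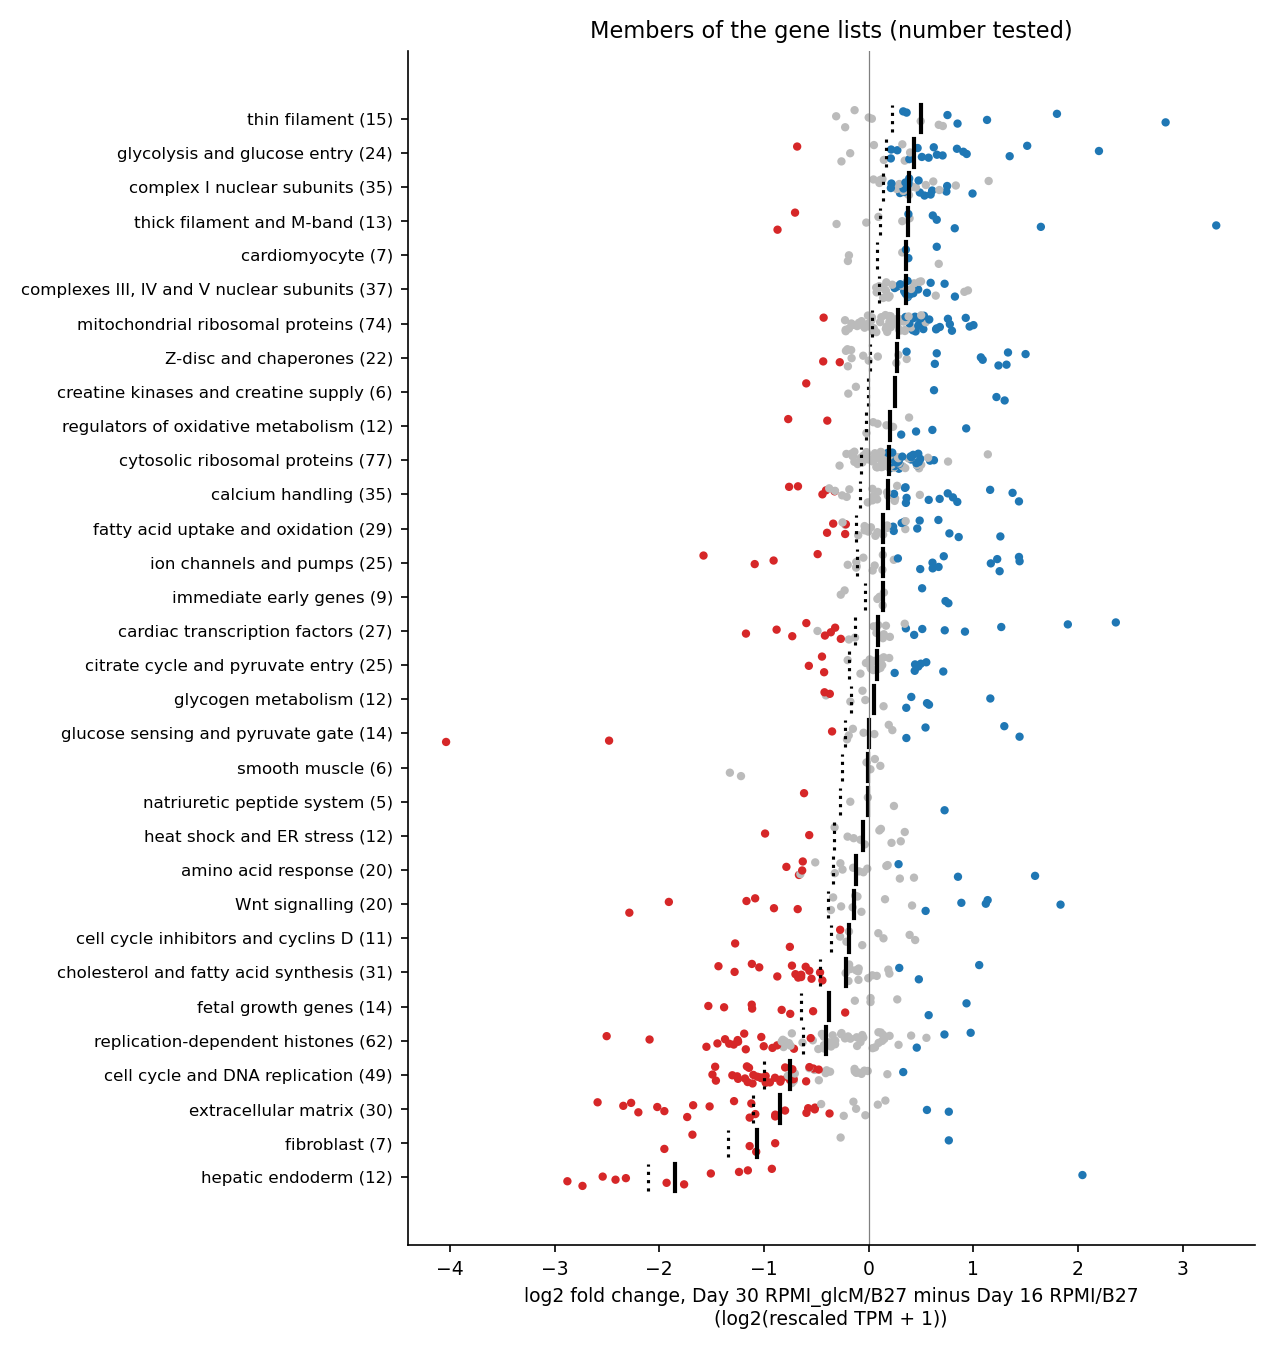
Log2 fold change from Day 16 RPMI/B27 to Day 30 RPMI_glcM/B27 (x axis, on log2(rescaled TPM + 1)) for the members of each gene list with at least 5 genes tested, the number tested in brackets. Blue points rose and red points fell at an adjusted p under 0.05, grey points did not pass. Solid bars are list medians on the rescaled scale and dotted bars on the deposited scale. Hepatic endoderm markers (median -1.85) lie lowest and thin filament genes (0.50) highest.

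Genes of the contractile apparatus rose more often than they fell. In the thick filament and M-band list, 6 of 13 genes tested rose and 2 fell (3 and 3 as deposited), with a median log2 fold change of 0.38. The thin filament list had 7 of 15 higher and 0 lower (4 and 2 as deposited). In the Z-disc list 9 of 22 rose and 2 fell (7 and 4 as deposited). MYL2 was at 37.8, 28.5, 40.5 and 43.0 TPM at Day 16 and at 366, 354, 394 and 405 TPM in Day 30 RPMI_glcM/B27. Every low-glucose library thus lay far above the highest Day 16 library, and the log2 fold change was 3.32 ± 0.14 (SE, adjusted p 1.9e-09). TNNI3, on chromosome 19 (55151767 to 55157732 on GRCh38.p14), was at 130, 117, 144 and 146 TPM at Day 16 and at 1024, 872, 880 and 1095 TPM later, and the groups again did not overlap (log2 fold change 2.84 ± 0.10, adjusted p 2.97e-10). The fetal partner TNNI1 did not fall. It rose from 368 ± 12.4 to 664 ± 20.6 TPM (SD, n = 4, log2 fold change 0.85 ± 0.06, adjusted p 2.77e-07).

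The beta myosin heavy chain MYH7 was at 1384, 1683, 1476 and 1628 TPM at Day 16 and at 2448, 2813, 2827 and 2820 TPM in Day 30 RPMI_glcM/B27. The alpha chain MYH6, the faster and fetal-to-atrial form in human heart, was at 1834, 1427, 1894 and 2106 TPM and then at 994, 923, 966 and 1054 TPM. The 2 neighbouring genes on chromosome 14 thus moved in opposite directions without overlap, MYH7 by 0.82 ± 0.13 (adjusted p 0.000261) and MYH6 by -0.87 ± 0.28 (adjusted p 0.0297) on the log2 scale. The MYH6 call was lost when any of 6 of the 8 libraries was left out, and since the 2 genes are near-identical in places, reads they share could have been divided by the counting. MYH7B, the slow-tonic myosin gene, rose from 12.9 ± 1.77 to 42.7 ± 8.32 TPM. MYLK3, the cardiac myosin light chain kinase, fell from 137 ± 26.2 to 82.5 ± 4.90 TPM (adjusted p 0.00083). MYL7 (log2 fold change 0.32 ± 0.16, adjusted p 0.145) and cardiac troponin T, TNNT2 (0.67 ± 0.32, adjusted p 0.142), did not pass the test.

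**Figure D2:**
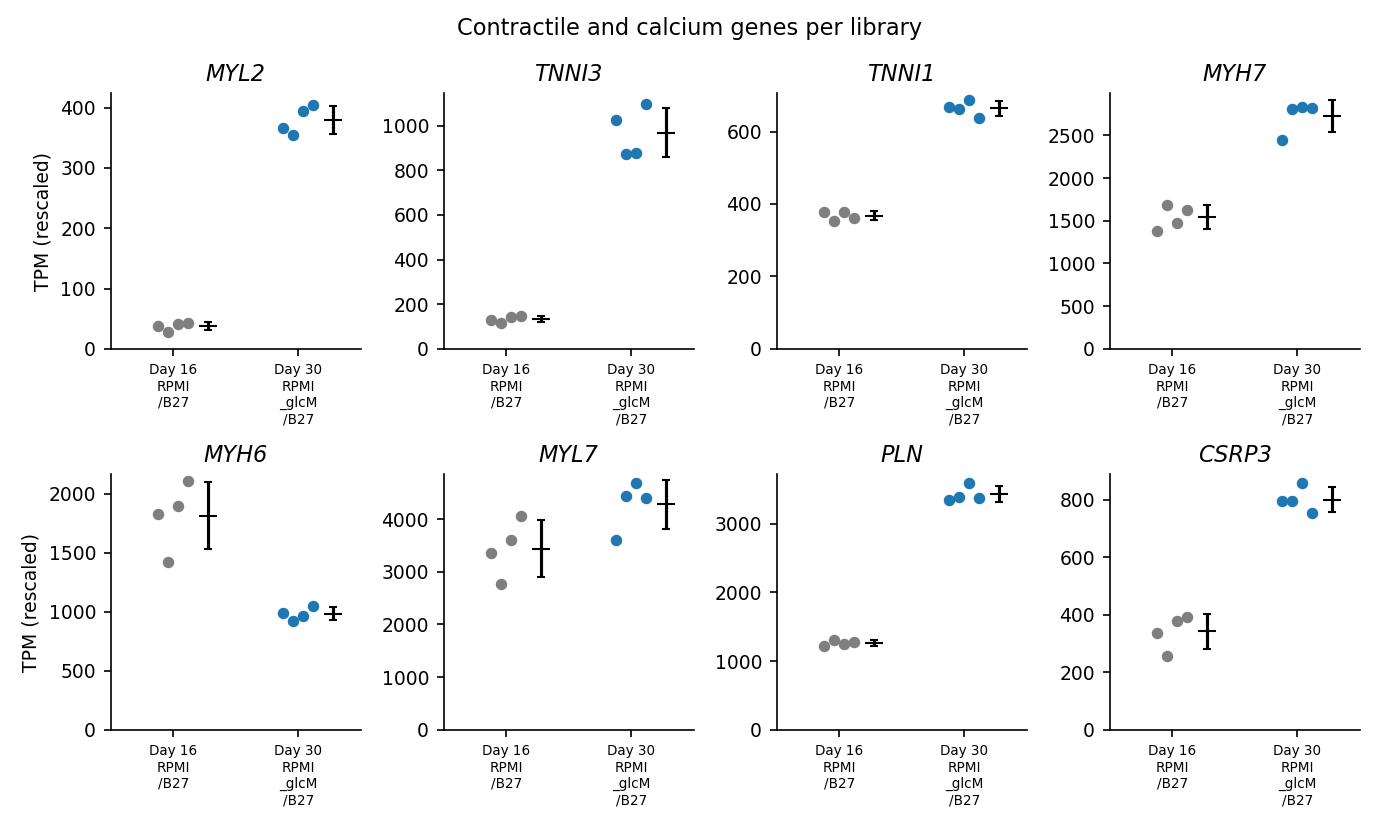
TPM (y axis, rescaled, from 0) of 8 contractile and calcium genes in the 4 libraries of Day 16 RPMI/B27 (grey) and of Day 30 RPMI_glcM/B27 (blue), with the mean and SD in black. MYL2, TNNI3, TNNI1, MYH7, PLN and CSRP3 are higher in the low-glucose libraries without overlap, MYH6 is lower, and MYL7 overlaps.

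At the Z-disc and along the actin filament, several adaptor genes rose together. CSRP3 (muscle LIM protein, a stretch-linked adaptor) rose from 342 ± 61.4 to 801 ± 43.1 TPM, TCAP (telethonin) from 31.7 ± 2.75 to 80.5 ± 4.65 TPM, and LMOD3, a leiomodin that nucleates actin, from 4.2 ± 0.63 to 17.1 ± 1.42 TPM. TRIM63 (MuRF1, the ubiquitin ligase of the sarcomere) was at 66.9 to 78.8 TPM at Day 16 and at 172 to 204 TPM later (log2 fold change 1.33 ± 0.10, adjusted p 3.99e-07). Of the 2 genes of this list that fell, PDLIM5 was at 241 to 298 TPM and then at 181 to 208 TPM, and LDB3 went from 347 ± 23.8 to 287 ± 21.7 TPM. Both calls were lost without the libraries above 1000 TPM of RNR1, and that of LDB3 also without Day 16 replicate 1 or low-glucose replicate 4. In the same libraries 3 of the 7 cardiomyocyte markers rose (0 as deposited, where 2 fell), and their summed level went from between 7095 and 10086 TPM to between 10080.1 and 12186 TPM. Its part in the contractile changes was not tested.

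Shares within a pair of isoforms do not depend on how a library is scaled, and they were compared for 12 pairs as the later form in percent of both (two-sided exact permutation tests, adjusted over 12 pairs). The share was higher without overlap in 7 pairs and lower in 2, each with p = 0.0286, the smallest that 4 against 4 libraries can give, and an adjusted p of 0.0381 in the exact permutation tests. The MYH7 share was 43.0, 54.1, 43.8 and 43.6% at Day 16 and 71.1, 75.3, 74.5 and 72.8% in Day 30 RPMI_glcM/B27. The TNNI3 share was 25.5, 24.9, 27.6 and 28.8% and then 60.5, 56.8, 56.1 and 63.2%. Both pairs thus passed from a minority or near balance to a majority of the later form. MYL2 made up 1.07 ± 0.05% of the ventricular and atrial light chains at Day 16 and 8.20 ± 0.80% later, so that MYL7 was still the main form.

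Pairs outside the thick filament moved as well. The CKM share of the cytosolic creatine kinases rose from 55.8 ± 1.98% to 78.1 ± 2.15%. PGAM2 of the phosphoglycerate mutases rose from 18.2 ± 3.59% to 24.8 ± 1.64%, and ACTA1 of the sarcomeric actins from 2.42 ± 0.64% to 4.45 ± 0.32%. Both pairs that fell belong to glycolysis. The muscle enolase ENO3 went from 16.8 ± 1.01% to 11.6 ± 0.45% of both enolases, and LDHB from 54.5 ± 2.03% to 48.0 ± 2.46% of the lactate dehydrogenases, while in both pairs each gene rose in level. The glucose transporter pair SLC2A4 and SLC2A1 (p = 0.0857, exact permutation test) and the muscle forms COX6A2 (p = 0.257, exact permutation test) and COX7A1 (p = 0.2, exact permutation test) did not pass, and COX7A1 had a mean of 1.28 TPM at Day 16. Against Day 30 RPMI/B27 no share passed after adjustment (smallest adjusted p 0.0686, exact permutation tests), although the TNNI3 share there was 41.8 ± 2.03% and did not overlap with that of the low-glucose libraries at p = 0.0286 (exact permutation test).

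**Figure D3:**
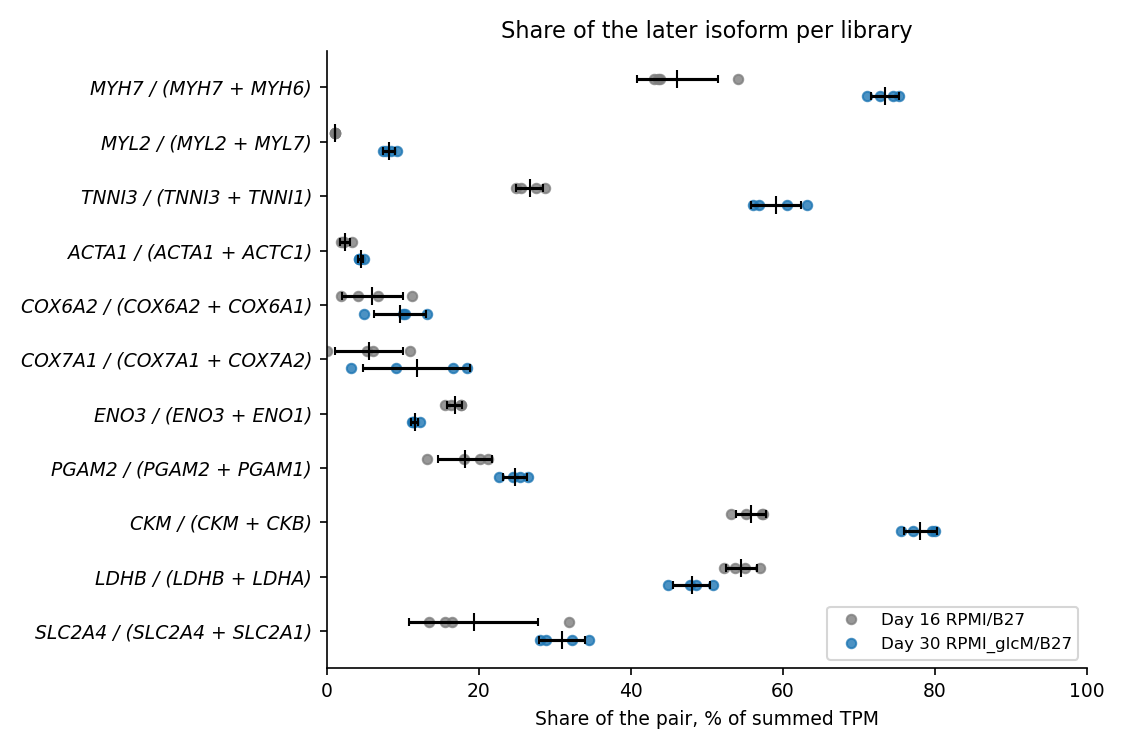
Share of the later isoform in percent of the summed TPM of each of 11 pairs (x axis) in the 4 libraries of Day 16 RPMI/B27 (grey) and of Day 30 RPMI_glcM/B27 (blue), with the mean and SD in black. The TNNI3 share moves from 26.7 to 59.2% and the MYH7 share from 46.1 to 73.4%, while the ENO3 and LDHB shares fall.

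Of 35 calcium handling genes 13 rose and 5 fell, the latter near the 13.9% of all genes that fell. As deposited 5 rose and 8 fell, so the balance turned, with 532 of all genes higher and 2950 lower on that scale. Phospholamban (PLN), the inhibitor of the sarcoplasmic calcium pump, was at 1225, 1312, 1247 and 1277 TPM at Day 16 and at 3344, 3395, 3599 and 3373 TPM in Day 30 RPMI_glcM/B27, without overlap (log2 fold change 1.44 ± 0.11, adjusted p 2.84e-07). The pump itself, ATP2A2, was at 402 ± 16.3 and 413 ± 14.1 TPM (log2 fold change 0.04 ± 0.08, adjusted p 0.769, with the sign turned on the other 2 scales). The calcium store protein CASQ2 rose from 9.24 ± 2.25 to 17.3 ± 3.52 TPM, and the channel subunit CACNA2D1 from 13.6 ± 1.00 to 23.6 ± 1.42 TPM. The release channel RYR2 rose from 202 ± 10.6 to 258 ± 8.79 TPM (adjusted p 0.000193). The CASQ2 call was lost with the TPM as deposited, and the RYR2 call on both other scales. RRAD, a GTP-binding inhibitor of the L-type calcium channel, rose with overlap between the groups, since a library stood apart, with 17.5, 69.7, 22.5 and 18.9 TPM at Day 16 and 65.8 to 77.7 TPM later, a call lost without the libraries above 1000 TPM of RNR1. CAMK2D, the delta calcium and calmodulin kinase (190 ± 6.67 to 143 ± 7.47 TPM), and sorcin, SRI (31.0 ± 6.77 to 18.8 ± 2.68 TPM), fell.

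Of the ion channels and pumps, 11 of 25 tested rose and 4 fell (5 and 4 as deposited). ABCC9, the regulatory subunit of the ATP-sensitive potassium channel, was at 9.56, 13, 11 and 10.9 TPM at Day 16 and at 33.1, 31, 31.4 and 31.6 TPM in Day 30 RPMI_glcM/B27, without overlap (log2 fold change 1.44 ± 0.11, adjusted p 4.58e-07). GJA5, the connexin of atrial and conduction cells, fell from 6.68 ± 0.63 to 1.62 ± 0.61 TPM. The pacemaker channel HCN4 did not pass (log2 fold change -0.12 ± 0.11, adjusted p 0.466). The inward rectifier KCNJ2 was under 1 TPM and was not tested, with means of 0.143 TPM at Day 16 and 0.367 TPM later.

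Cardiac transcription factors split evenly, 8 of 27 higher and 8 lower (4 and 9 as deposited). SHOX2, a factor of the sinoatrial node and sinus venosus, had 0 or 1 read in each Day 16 library and 31 to 69 reads in each Day 30 RPMI_glcM/B27 library, where it reached 2.92 ± 0.96 TPM. SHOX2 was tested only because of its level in the later group. PRRX1, a mesenchymal homeobox factor, was at 1.04, 1.52, 1.34 and 1.20 TPM and then at 10.7, 14.8, 8.0 and 10.1 TPM (log2 fold change 2.36 ± 0.15, adjusted p 5.08e-08). MEF2C, an early driver of cardiac muscle genes, fell from 57.2 ± 2.75 to 24.9 ± 2.04 TPM, and TBX2, a repressor of chamber genes, from 35.7 ± 1.73 to 21.2 ± 2.3 TPM. TBX20 did not pass (0.20 ± 0.11, adjusted p 0.206). It was negative as deposited, and it passed as higher with RNR1 as covariate (adjusted p 0.0236) and without Day 16 replicate 2 (adjusted p 0.0472). Of the natriuretic peptides, NPPA was at 72.8 to 77.9 TPM at Day 16 and 113 to 140 TPM later (log2 fold change 0.73 ± 0.24, adjusted p 0.0356), a call lost as deposited, with a replicate block (adjusted p 0.0509), with RNR1 as covariate (adjusted p 0.0889) and in 7 of the 8 fits with a library left out. NPPB ranged from 43.8 to 267 TPM at Day 16 around the later 129 to 196 TPM (adjusted p 0.797).

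The deepest fall of all genes named by size was in the glucose-responsive TXNIP, on chromosome 1 (145992435 to 145996579 on GRCh38.p14). TXNIP was at 77.1, 136, 73.0 and 78.0 TPM at Day 16 and at 5.16, 5.39, 4.75 and 2.81 TPM in Day 30 RPMI_glcM/B27. The highest low-glucose library thus lay more than an order of magnitude below the lowest Day 16 library, and the log2 fold change was -4.04 ± 0.33 (adjusted p 7.23e-07). At standard glucose TXNIP stood at 138, 206, 73.8 and 133 TPM at Day 30, and in HPLM/B27 at 2.72 to 6.97 TPM. Its paralog ARRDC4 was at 12.9, 19.6, 13.0 and 13.5 TPM at Day 16 and at 1.41, 1.98, 2.63 and 1.31 TPM later (log2 fold change -2.48 ± 0.20, adjusted p 4.97e-07), against 16.4 to 27.9 TPM in Day 30 RPMI/B27. The direct comparison of both media at Day 30 gave a log2 difference of -4.59 for TXNIP and -3.05 for ARRDC4.

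The TXNIP promoter is shown because it is the region through which glucose is known to act on this gene. It covers 250 bases before and 50 after the RefSeq start (GRCh38.p14, chr1:145996530-145996829, minus strand, written in the direction of the gene). Capitals mark the motif searched, CACGNG repeated after a gap of 5 bases, on either strand, which is the form of a carbohydrate response element. It begins 88 bases before the start. The motif was in 15 of 10953 promoters of the genes tested (0.137%), and of the 11 promoters in the glucose sensing list in 1, that of TXNIP. A match in the letters is a description and not a measurement of binding.
TXNIP: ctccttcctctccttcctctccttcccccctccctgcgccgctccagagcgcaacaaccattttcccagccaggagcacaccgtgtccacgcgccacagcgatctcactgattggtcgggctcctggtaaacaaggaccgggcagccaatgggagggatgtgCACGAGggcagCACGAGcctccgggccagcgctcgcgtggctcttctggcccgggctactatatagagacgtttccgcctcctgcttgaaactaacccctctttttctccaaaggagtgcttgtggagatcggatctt

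Other genes of glucose sensing and of the pyruvate gate moved less uniformly, 4 of 14 higher and 3 lower (2 and 3 as deposited), with a median log2 fold change of 0.00. MPC1, a subunit of the mitochondrial pyruvate carrier, was at 19.2 to 20.7 TPM at Day 16 and at 44.4 to 55.6 TPM later (log2 fold change 1.30 ± 0.10, adjusted p 3.48e-07). PFKFB2, the heart form of the enzyme that makes fructose 2,6-bisphosphate, rose from 2.22 ± 0.56 to 7.69 ± 0.91 TPM (adjusted p 2.66e-06). Both differed from Day 30 RPMI/B27, where their means were 30.9 and 2.41 TPM.

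Genes of glycolysis rose more often than they fell. Of 24 genes of glycolysis and glucose entry, 16 rose and 1 fell (8 and 3 as deposited), with a median log2 fold change of 0.43 against 0.01 for all genes. LDHA was at 320, 320, 375 and 356 TPM at Day 16 and at 566, 646, 603 and 647 TPM in Day 30 RPMI_glcM/B27 (log2 fold change 0.84 ± 0.08, adjusted p 2.22e-06). ENO1 rose from 511 ± 35.2 to 957 ± 53.8 TPM and TPI1 from 264 ± 12.9 to 431 ± 12.9 TPM. The smaller partners ENO3 (103 ± 1.95 to 125 ± 6.48 TPM) and LDHB (411 ± 42.8 to 570 ± 68.9 TPM) also rose, calls that were lost as deposited. The glucose transporters differed among themselves. SLC2A4, the insulin-responsive form GLUT4, was at 7.47, 16.1, 8.83 and 7.97 TPM and then at 30.9, 30.3, 28.5 and 27.9 TPM (log2 fold change 1.52 ± 0.22, adjusted p 0.000137). SLC2A1 (GLUT1) rose from 43.2 ± 9.96 to 66.2 ± 8.06 TPM, a call lost as deposited, and SLC2A3 (GLUT3) fell from 136 ± 13.9 to 84.2 ± 7.09 TPM.

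Against Day 30 RPMI/B27, 17 of these 24 genes were higher in low glucose and 0 lower on the rescaled scale. Of all genes 6.38% were higher and 5.44% lower in that comparison. LDHA (337 ± 25.7 TPM at standard glucose) and SLC2A4 (12.3 ± 3.34 TPM) stood near their Day 16 levels there. The 2 comparisons share the low-glucose libraries. In glycogen metabolism 5 of 12 genes rose and 2 fell (1 and 2 as deposited). The liver-type phosphorylase PYGL went from 27 ± 2.4 to 61.5 ± 1.92 TPM (adjusted p 1.75e-08), and the branching enzyme GBE1 from 109 ± 8.05 to 163 ± 7.88 TPM, a call lost as deposited. PHKB, the beta subunit of phosphorylase kinase, fell from 58.9 ± 2.47 to 43.7 ± 1.61 TPM.

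**Figure D4:**
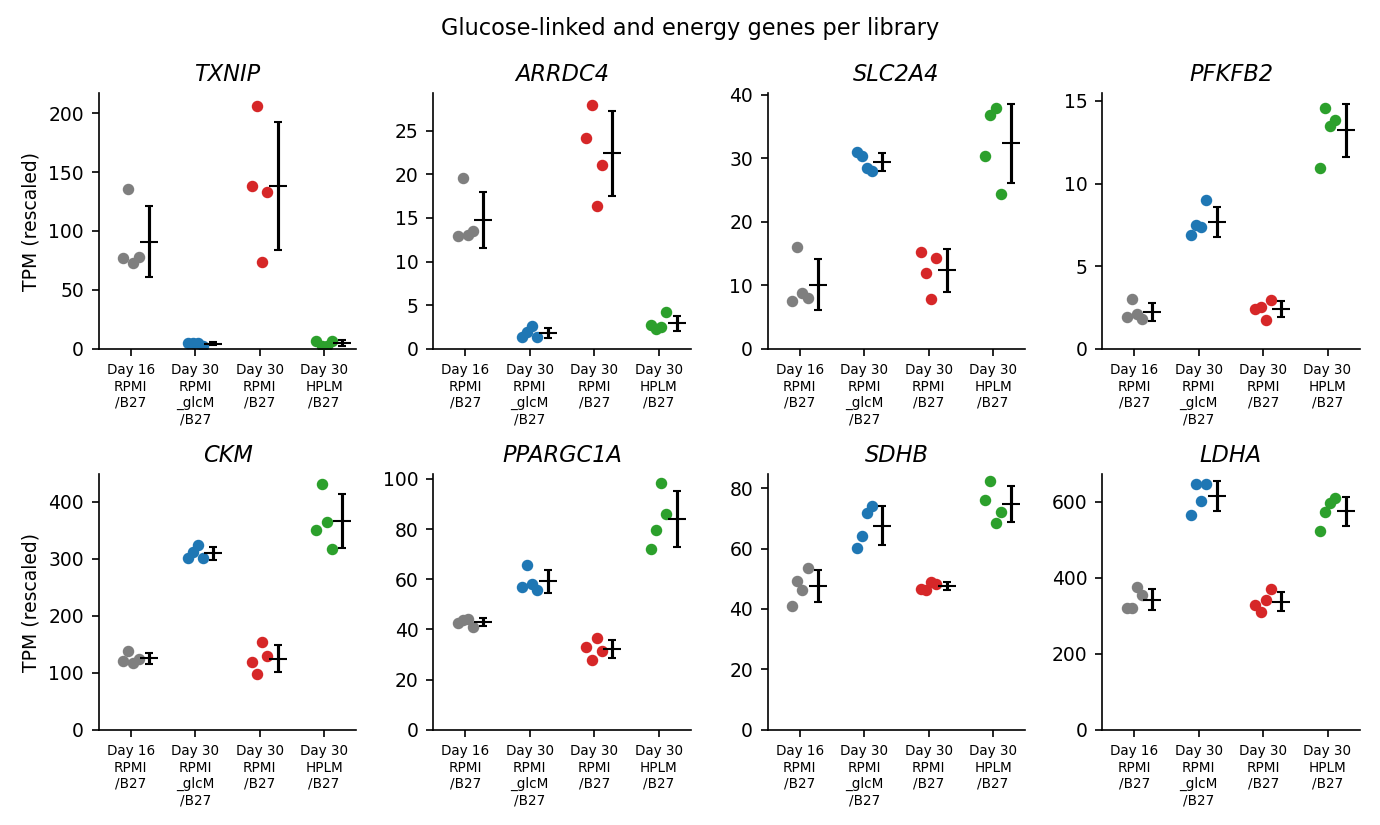
TPM (y axis, rescaled, from 0) of 8 genes in the 4 libraries of Day 16 RPMI/B27 (grey), Day 30 RPMI_glcM/B27 (blue), Day 30 RPMI/B27 (red) and Day 30 HPLM/B27 (green), with the mean and SD in black. TXNIP and ARRDC4 are low and SLC2A4, PFKFB2, CKM, PPARGC1A, SDHB and LDHA high in the low-glucose libraries compared with Day 30 RPMI/B27, without overlap.

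Nuclear subunits of the respiratory chain moved in a single direction on the rescaled scale. Of 35 complex I subunits tested, 17 rose and 0 fell, and of 37 subunits of complexes III, IV and V, 15 rose and 0 fell. As deposited 4 and 3 rose and 0 fell, so that most of these calls depended on the scale. All 35 and all 37 had a log2 fold change above 0 on the rescaled scale, with medians of 0.39 and 0.35. NDUFA8 was at 15.4, 13.3, 17.1 and 16.6 TPM at Day 16 and at 28.3, 31.9, 29.7 and 38.9 TPM later (log2 fold change 0.99 ± 0.14, adjusted p 7.92e-05). NDUFA12 rose from 191 ± 24.0 to 318 ± 14.1 TPM and NDUFA1 from 69.6 ± 9.61 to 101 ± 14.6 TPM, the latter lost as deposited. In cytochrome c oxidase COX5B rose from 900 ± 42.2 to 1325 ± 59.0 TPM, COX5A from 81.6 ± 7.83 to 110 ± 11.8 TPM and COX7B from 53.3 ± 8.77 to 74.2 ± 10.8 TPM, and none of these 3 passed as deposited. The COX7B call was also lost without low-glucose replicate 4. Transcripts encoded by the mitochondrial genome, other than the ribosomal RNAs, were not analysed here.

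In the citrate cycle 7 of 25 genes rose and 3 fell (1 and 5 as deposited), where 13.8% of all genes rose and 13.9% fell. The subunits of succinate dehydrogenase SDHA (59.3 ± 4.07 to 80.9 ± 2.90 TPM), SDHB (47.6 ± 5.33 to 67.6 ± 6.54 TPM) and SDHD (36.5 ± 2.20 to 54.0 ± 2.75 TPM) rose, calls that were lost as deposited. IDH2, the mitochondrial NADP-dependent isocitrate dehydrogenase (427 ± 36.0 to 317 ± 16.1 TPM), and SUCLG2, the GTP-forming succinyl-CoA ligase subunit (15.2 ± 1.20 to 9.87 ± 0.71 TPM), fell. Against Day 30 RPMI/B27, counts are on the rescaled scale only. There 10 of 25 citrate cycle genes, 8 of 35 complex I subunits and 15 of 37 subunits of complexes III to V were higher in low glucose and 0 lower in each list. Of all genes 6.38% were higher and 5.44% lower in that comparison. SDHB was at 46.1 to 48.9 TPM in the 4 standard-glucose libraries and at 60.2 to 74.1 TPM in the 4 low-glucose libraries.

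Of 29 genes of fatty acid uptake and oxidation 10 rose and 4 fell (3 and 4 as deposited), where 13.8% of all genes rose and 13.9% fell. FABP3, the heart fatty acid binding protein, was at 149, 146, 155 and 176 TPM at Day 16 and at 344, 364, 379 and 414 TPM later (log2 fold change 1.26 ± 0.11, adjusted p 9.55e-07). CPT1A, the liver form of the enzyme that admits long-chain fatty acids to mitochondria, rose from 4.27 ± 0.57 to 8.0 ± 0.89 TPM. DECR1, needed for unsaturated fatty acids, fell from 29.8 ± 1.34 to 23.3 ± 1.01 TPM. ACADVL, the very long-chain acyl-CoA dehydrogenase, did not pass (log2 fold change 0.00 ± 0.12, adjusted p 0.992), and lipoprotein lipase LPL was not tested, with means of 0.515 and 1.02 TPM.

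Of the regulators of oxidative metabolism, 4 of 12 rose and 2 fell (1 and 2 as deposited). The nuclear receptor ESRRA rose from 7.31 ± 0.92 to 14.8 ± 1.11 TPM (log2 fold change 0.93 ± 0.09, adjusted p 2.77e-06). The coactivators PPARGC1A (42.9 ± 1.54 to 59.2 ± 4.57 TPM) and PPARGC1B (6.30 ± 0.59 to 10.2 ± 1.25 TPM) and the receptor PPARA (12.1 ± 1.04 to 15.2 ± 0.60 TPM) rose as well, calls lost as deposited. RXRG, a retinoid X receptor, fell from 21 ± 0.48 to 12.1 ± 2.39 TPM. In the 4 libraries of Day 30 RPMI/B27 PPARGC1A was at 27.7 to 36.7 TPM, below Day 16 as well as below low glucose. In HPLM/B27 it was at 72.0 to 98.2 TPM, which was higher than in low glucose by 0.49 on the log2 scale (adjusted p 0.0172).

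Of 6 genes of the creatine kinases and creatine supply 3 rose and 1 fell (2 and 1 as deposited). Between the media at Day 30, 3 were higher and 1 lower in low glucose (6.38% and 5.44% of all genes). CKM, the muscle creatine kinase, was at 121, 138, 117 and 125 TPM at Day 16, at 301, 312, 324 and 301 TPM in Day 30 RPMI_glcM/B27, and at 119, 97.6, 154 and 130 TPM in Day 30 RPMI/B27. The low-glucose libraries lay above those of both groups at standard glucose, and CKM differed from Day 16 by 1.30 ± 0.12 on the log2 scale (adjusted p 1.76e-06) and from Day 30 RPMI/B27 by 1.32 ± 0.12 (adjusted p 1.86e-05). The mitochondrial CKMT2 rose from 9.70 ± 0.38 to 24.0 ± 0.51 TPM but overlapped with Day 30 RPMI/B27 (mean 21.01 TPM, adjusted p 0.183), and the creatine transporter SLC6A8 from 12.1 ± 0.75 to 19.2 ± 1.56 TPM, lost as deposited. The brain form CKB was at 99.1 ± 4.48 and 86.8 ± 8.63 TPM (adjusted p 0.177), against 42.6 ± 7.04 TPM in Day 30 RPMI/B27.

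Genes of lipid synthesis fell more often than they rose. Of 31 genes of cholesterol and fatty acid synthesis, 15 fell and 3 rose (15 and 1 as deposited), with a median log2 fold change of -0.22. SC5D, a late enzyme of cholesterol synthesis, was at 161, 166, 158 and 152 TPM at Day 16 and at 71.3, 66.8, 61.2 and 60.8 TPM later (log2 fold change -1.28 ± 0.08, adjusted p 4.21e-08). ELOVL6, a fatty acid elongase, fell from 17.9 ± 3.32 to 5.90 ± 0.13 TPM, whereas SREBF1, the lipogenic transcription factor, rose from 6.35 ± 0.82 to 14.3 ± 1.41 TPM (adjusted p 9.87e-05). HMGCS1, the first committed step to mevalonate, did not pass (adjusted p 0.551). In the amino acid response list 3 of 20 rose and 4 fell (1 and 5 as deposited), shares near the 13.8% and 13.9% of all genes. DDIT4, an inhibitor of mTORC1, rose from 18.1 ± 5.00 to 55.2 ± 7.12 TPM and DDIT3 (CHOP) from 12.1 ± 1.69 to 23.2 ± 5.87 TPM, the latter lost as deposited. PHGDH, the entry to serine synthesis, fell from 6.77 ± 0.83 to 3.89 ± 0.39 TPM and the amino acid transporter SLC7A5 from 5.77 ± 1.25 to 2.89 ± 0.39 TPM. Of 12 genes of heat shock and ER stress 0 rose and 2 fell on both scales, where 13.8% of all genes rose and 13.9% fell on the rescaled scale. The ER chaperone PDIA4 (82.8 ± 12.6 to 40.9 ± 1.08 TPM) was among those that fell.

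Cell cycle genes fell broadly. Of 49 genes of the cell cycle and DNA replication, 30 fell and 1 rose (38 and 0 as deposited), with a median log2 fold change of -0.75. DLGAP5, a mitotic spindle protein, was at 40.0, 47.1, 40.9 and 41.9 TPM at Day 16 and at 14.9, 15.1, 14.2 and 14.7 TPM later (log2 fold change -1.47 ± 0.22, adjusted p 0.000197). HMMR, which acts at the spindle, fell from 22.1 ± 1.15 to 9.32 ± 0.90 TPM. TOP2A, a topoisomerase of dividing cells, had no overlap (80.4 to 92.3 and 44.7 to 54.6 TPM) with an adjusted p of 0.0605, and it passed as deposited and in 5 other fits. The replicative helicase subunit MCM4 was the gene that rose (30.9 ± 4.73 to 38.8 ± 0.98 TPM), a call lost on both other scales and without low-glucose replicate 2. Among inhibitors and D cyclins 3 of 11 fell and 0 rose on both scales, with CDKN1A (p21) going from 141 ± 13.1 to 83.0 ± 7.54 TPM and CDKN2B (p15) from 6.94 ± 0.80 to 2.27 ± 0.17 TPM. Against Day 30 RPMI/B27, 1 of the 49 cell cycle genes was lower and 1 higher in low glucose (5.44% and 6.38% of all genes), with a median log2 difference of -0.31. DLGAP5 (-0.59, adjusted p 0.105), HMMR (-0.55, adjusted p 0.0866) and TOP2A (-0.27, adjusted p 0.595) were below the standard-glucose libraries without overlap and did not pass the test.

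Of 62 replication-dependent histone genes 17 fell and 3 rose (29 and 1 as deposited). HIST1H3I was at 16.4, 12.2, 11.2 and 21.3 TPM at Day 16 and at 4.51, 4.65, 0.68 and 2.63 TPM later, from 1 to 9 reads per library. HIST2H2BE rose from 45.2 ± 2.32 to 75.4 ± 5.12 TPM, a call lost as deposited. Histone genes are near-identical copies, so that reads may have been divided among them by the counting.

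Promoters of 2 cell cycle genes are shown because the genes of this list fell together and their promoters share short motifs. CCNB2 (cyclin B2) was at 40.8, 42.7, 49.2 and 34.7 TPM at Day 16 and at 19, 19.9, 14.4 and 19.8 TPM in Day 30 RPMI_glcM/B27, a log2 fold change of -1.16 ± 0.25 (adjusted p 0.00281). CDC20, an activator of the anaphase-promoting complex, was at 11.7, 12.3, 13.2 and 12.1 TPM and then at 7.25, 8.40, 8.64 and 7.03 TPM, a log2 fold change of -0.60 ± 0.19 (adjusted p 0.0312) that did not pass in 6 of the 8 fits with a library left out. These 2 genes were chosen after their values were seen. The windows run from 250 bases before to 50 after the RefSeq start on GRCh38.p14, chr15:59104896-59105195 and chr1:43358731-43359030, both on the plus strand. Capitals mark TTTGAA, the core of the cell cycle homology region, and CCAAT, the box bound by NF-Y, each on either strand. TTTGAA was in 17 of 40 promoters of the cell cycle list (42.5%) and in 11% of the 10953 promoters of genes tested, and CCAAT in 31 of 40 (77.5%) and 36.5%. Among the 1661 promoters of genes that fell TTTGAA was in 14.3%, and among the 1613 of genes that rose in 10.5%.
CCNB2: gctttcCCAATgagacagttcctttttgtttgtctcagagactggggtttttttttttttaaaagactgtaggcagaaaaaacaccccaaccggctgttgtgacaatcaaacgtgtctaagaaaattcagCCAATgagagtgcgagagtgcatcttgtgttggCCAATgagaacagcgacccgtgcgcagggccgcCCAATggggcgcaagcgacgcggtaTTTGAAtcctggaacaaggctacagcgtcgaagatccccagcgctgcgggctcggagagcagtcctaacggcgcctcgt
CDC20: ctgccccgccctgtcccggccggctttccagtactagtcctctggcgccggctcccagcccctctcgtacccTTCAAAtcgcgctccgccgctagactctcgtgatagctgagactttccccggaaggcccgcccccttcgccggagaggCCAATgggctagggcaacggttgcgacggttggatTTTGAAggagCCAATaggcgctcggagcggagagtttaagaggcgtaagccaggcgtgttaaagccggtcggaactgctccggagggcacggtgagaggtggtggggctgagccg

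Extracellular matrix genes fell more than any pathway list by their median. Of 30 tested, 21 fell and 2 rose (22 and 0 as deposited), with a median log2 fold change of -0.84. Fibronectin, FN1, was at 362, 364, 318 and 291 TPM at Day 16 and at 77.3, 69.4, 71.2 and 68.7 TPM later (log2 fold change -2.20 ± 0.10, adjusted p 2.82e-09). HAS2, the hyaluronan synthase of early cardiac jelly, went from 19.6, 11.2, 19.3 and 17.4 TPM to 2.31, 2.48, 1.30 and 1.70 TPM (log2 fold change -2.59 ± 0.18, adjusted p 1.22e-07). SPARC fell from 126 ± 15.2 to 43.1 ± 2.91 TPM. The basement membrane chain LAMA2 (64.7 ± 1.99 to 95.7 ± 3.72 TPM) and periostin, POSTN (26.7 ± 6.25 to 45.4 ± 2.31 TPM), rose, both calls being lost as deposited. The collagen COL4A2 did not pass (adjusted p 0.851).

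Markers of fibroblasts mostly fell, as the matrix genes did. The lists overlap, since COL1A1, COL3A1, DCN, LUM and POSTN are in both, which partly fixes this likeness. Of 7 fibroblast markers tested, 5 fell and 1, POSTN, rose (5 and 0 as deposited). Among those that fell were COL1A1 (55.4 ± 11 to 24.4 ± 2.90 TPM) and FBLN1 (6.23 ± 0.86 to 1.26 ± 0.31 TPM), the latter not in the matrix list. The summed level of the 11 fibroblast markers was 190 to 273 TPM at Day 16 and 125 to 141 TPM in Day 30 RPMI_glcM/B27, without overlap, and none was at 0 reads. The part of the fibroblast markers in the matrix and cell cycle results was not tested. Against Day 30 RPMI/B27, 15 of the 30 matrix genes were lower in low glucose and 0 higher on the rescaled scale (5.44% and 6.38% of all genes).

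Growth and patterning genes of the embryo fell in part. In the list of fetal growth genes 8 of 14 fell and 2 rose (8 and 0 as deposited). HMGA2, a chromatin protein of growing fetal tissue, was at 45.7, 46.4, 48.2 and 48.2 TPM and then at 16.7, 14.7, 14.3 and 17.1 TPM (log2 fold change -1.53 ± 0.07, adjusted p 2.73e-09). LIN28B, the let-7 inhibitor, fell from 10.4 ± 0.33 to 4.28 ± 0.32 TPM. The imprinted genes PEG10 (86.4 ± 23.1 to 163 ± 9.67 TPM) and IGF2 (3.49 ± 0.66 to 5.66 ± 0.77 TPM) rose, calls lost as deposited, and reads of IGF2 cannot be separated from the overlapping INS-IGF2 by name. GPC3, a glypican that restrains growth, fell from 55.0 ± 4.56 to 8.09 ± 1.63 TPM (log2 fold change -2.64 ± 0.16, adjusted p 4.2e-08).

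Wnt signalling genes moved in both directions, with 5 of 20 higher and 6 lower (3 and 7 as deposited). The ligand WNT2 was at 7.17, 2.13, 5.42 and 4.39 TPM at Day 16 (33 to 93 reads) and had 0 to 5 reads in each low-glucose library (adjusted p 6.04e-06). WNT2 was tested only because of its level at Day 16. RSPO3, a secreted enhancer of Wnt signals, fell from 33.1 ± 1.61 to 8.10 ± 0.52 TPM (log2 fold change -1.91 ± 0.09, adjusted p 2.27e-09). The secreted inhibitor SFRP1 rose from 64.5 ± 3.42 to 233 ± 16.2 TPM (log2 fold change 1.83 ± 0.11, adjusted p 4.2e-08), and the receptor FZD1 from 44.7 ± 3.81 to 99.4 ± 6.40 TPM.

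Markers of hepatic endoderm, a by-product of cardiac differentiation, showed the largest list-wide fall. Of 12 tested, 11 fell and 1 rose on both scales, with a median log2 fold change of -1.85. AFP, alpha-fetoprotein, was at 462, 232, 331 and 492 TPM at Day 16 and at 70.5, 49.4, 33.4 and 71.9 TPM in Day 30 RPMI_glcM/B27 (log2 fold change -2.73 ± 0.31, adjusted p 1.41e-05). APOB, the apolipoprotein of LDL, was at 39.8, 18.1, 27.6 and 33.1 TPM and then at 4.76, 2.24, 1.77 and 4.08 TPM (log2 fold change -2.88 ± 0.28, adjusted p 3.02e-06). The fibrinogen chains FGB (24.1 ± 9.26 to 3.35 ± 1.87 TPM) and FGA (9.89 ± 2.92 to 1.18 ± 0.59 TPM) fell with them. Albumin, ALB, the marker of the mature hepatocyte, moved the other way, from 26.0, 10.5, 16.3 and 19.8 TPM to 94.8, 58.2, 43.7 and 127 TPM (log2 fold change 2.04 ± 0.37, adjusted p 0.0008). In Day 30 RPMI/B27 ALB was higher still, at 226 to 270 TPM. Within a group the libraries kept a like order, with Day 16 replicate 2 lowest for AFP, APOB, APOA2, FGB and ALB, and low-glucose replicate 3 lowest for these and for FGA. The summed level of the 13 markers was 363 to 713 TPM at Day 16 and 100 to 247 TPM later.

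**Figure D5:**
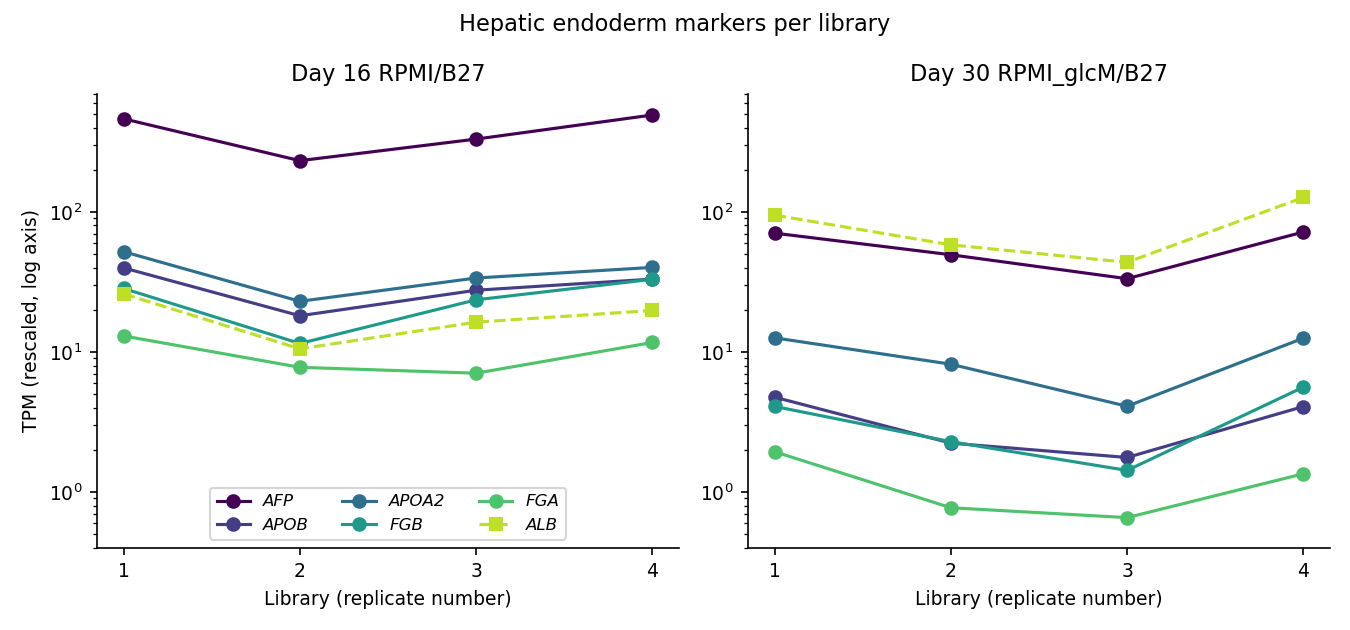
TPM (y axis, rescaled, log axis) of 6 hepatic endoderm markers in each library (x axis, replicate number) of Day 16 RPMI/B27 (left) and Day 30 RPMI_glcM/B27 (right), with lines joining the values of a gene. AFP, APOB, APOA2, FGB and FGA are lower on the right and ALB is higher, and replicate 3 is the lowest library on the right for all 6 genes.

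The AFP promoter is shown for a motif that several of these markers hold. The window is chr4:73435971-73436270 on GRCh38.p14, plus strand, from 250 bases before to 50 after the RefSeq start, and capitals mark GTTAAT, the core of the motif of the hepatocyte factor HNF1, searched on either strand. GTTAAT was in the promoters of AFP, FGA, FGB and ALB, 4 of the 7 hepatic endoderm markers with a promoter entry (57.1%), and in 4.39% of all 10953. The motif was thus in genes that fell and in the gene that rose.
AFP: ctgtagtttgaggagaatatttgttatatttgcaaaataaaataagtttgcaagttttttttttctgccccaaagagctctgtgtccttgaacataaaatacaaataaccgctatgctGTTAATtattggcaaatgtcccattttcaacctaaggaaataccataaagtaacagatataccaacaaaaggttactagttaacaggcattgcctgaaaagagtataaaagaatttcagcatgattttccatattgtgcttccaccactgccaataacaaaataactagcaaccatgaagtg

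Markers of other cell types were examined in the same way. Of the smooth muscle markers 0 of 6 passed the test (2 fell as deposited), and ACTA2 shows a library apart, with 370, 121, 400 and 365 TPM at Day 16 and 118 to 132 TPM later (adjusted p 0.105, or 0.033 without Day 16 replicate 2). MYH11, which defines smooth muscle, was at 0 reads in all 8 libraries. The summed level of the 7 smooth muscle markers was 320 to 756 TPM at Day 16 and 385 to 413 TPM later, with overlap. The endothelial receptor KDR fell from 39.7 ± 4.24 to 20.4 ± 2.22 TPM and was the single endothelial marker tested, with VWF at 0 reads in all 8 libraries. The summed level of 8 such markers was 36.6 to 46.7 TPM at Day 16 and 19.1 to 24.7 TPM later. Nearly all of this sum was KDR, so it adds little to the fall of that gene. The part of these markers in the other results was not tested. Of the epicardial markers, 2 were tested and TBX18 rose from 9.34 ± 0.32 to 13.0 ± 1.05 TPM, a call lost on both other scales. The pluripotency gene POU5F1 was at 0 reads in all 8 libraries, and the summed level of 5 such markers was at most 3.94 TPM at Day 16 and 1.98 TPM later.

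Beyond the lists, the genes of largest change included several of unknown place in cardiac muscle. C11orf21 was at 0.365, 2.39, 1.06 and 0.423 TPM at Day 16 and at 16.1, 19.6, 17.2 and 15.4 TPM later (log2 fold change 3.23 ± 0.34, adjusted p 7.18e-06). It overlaps TSPAN32 on chromosome 11, so that reads may belong to either. PTGER3, a prostaglandin E2 receptor, rose from 1.73 ± 0.34 to 14.5 ± 1.41 TPM, NAV3, a neuron navigator, from 0.856 ± 0.23 to 9.17 ± 0.92 TPM, and FGF5, a fibroblast growth factor, from 1.15 ± 0.51 to 10.9 ± 1.13 TPM. BHLHE40, a hypoxia-linked and circadian repressor, was at 2.24, 8.88, 7.93 and 2.68 TPM and then at 23.1, 44.3, 37.6 and 29.9 TPM (log2 fold change 2.57 ± 0.34, adjusted p 6.15e-05). ALDH1A1, a retinaldehyde dehydrogenase, fell from 11.7 ± 2.94 to 1.18 ± 0.72 TPM. The small nucleolar RNA SNORD115-5 rose (2.29 to 17.0 TPM and then 32.1 to 119 TPM, adjusted p 0.000358) on 1 to 30 reads per library, and it belongs to a family of near-identical copies.

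The uncharacterised genes of largest change were few in reads or clear in the libraries by turns. LOC107986558 was at 1.79, 2.49, 1.72 and 1.55 TPM at Day 16 and at 28.7, 27.5, 24.6 and 28.4 TPM later (log2 fold change 3.30 ± 0.13, adjusted p 4.68e-10), on 276 to 435 reads in the later libraries. LOC100506664 fell from 25 ± 6.1 to 1.91 ± 0.54 TPM, on 3 to 6 reads in the later libraries, and LOC105369856 rose from 1.44 ± 1.14 to 14.7 ± 5.07 TPM, on 1 to 5 and then 12 to 28 reads.

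Ribosomal protein genes show how far the scale decides. Of 77 cytosolic ribosomal protein genes 22 rose and 0 fell, whereas as deposited 0 rose and 7 fell, and the list's median went from 0.20 to -0.08. RPS25 was at 500 ± 26.4 and 672 ± 11.4 TPM, a call lost as deposited, and RPL5 at 2537 ± 153 and 2635 ± 95.4 TPM (adjusted p 0.702, with the sign turned on both other scales). Of 74 mitochondrial ribosomal protein genes 22 rose and 1 fell (8 and 5 as deposited), among them MRPS5 (52.3 ± 1.97 to 76.1 ± 6.55 TPM), which did not pass as deposited. Of 9 immediate early genes 3 rose and 0 fell (1 and 0 as deposited), with JUN going from 65.9 ± 6.38 to 112 ± 7.0 TPM.

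Set against Day 30 RPMI/B27, the low-glucose libraries had 1042 genes higher (6.38%) and 888 lower (5.44%), or 215 and 130 as deposited. Some changes from Day 16 were present at both glucose levels. FGF5 was at 12.4 TPM, HAS2 at 2.22 TPM, WNT2 at 0.175 TPM and SHOX2 at 3.02 TPM in Day 30 RPMI/B27, and none of these differed between the media at the threshold (adjusted p 0.571, 0.676, 0.902 and 0.875). Others differed between the media. Genes that rose from Day 16 in low glucose and were higher there than at standard glucose, with large differences, were C11orf21 (log2 difference 2.20), PTGER3 (1.67), LOC105369856 (1.64), UAP1L1 (1.62), a gene related to a UDP-sugar pyrophosphorylase, and the neurofilament gene NEFL (1.56). C11orf21 was at a mean of 3.26 TPM in Day 30 RPMI/B27. NEFL had means of 3.55 TPM at Day 16, 8.17 TPM in low glucose and 2.19 TPM at standard glucose.

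The genes lower in low glucose with the largest differences were TXNIP and ARRDC4, given above, and SULT1E1 (log2 difference -2.41), SPP1 (-1.73), APOA2 (-1.67) and ANXA1 (-1.62). SULT1E1, the estrogen sulfotransferase, was at 13.9, 9.26, 9.88 and 14.8 TPM at Day 16, at 7.41, 5.21, 5.91 and 6.76 TPM in low glucose and at 31.2 to 50.5 TPM at standard glucose. Its call from Day 16 was lost without the libraries above 1000 TPM of RNR1, as was that of APOA2. Osteopontin, SPP1, was at 2.20 ± 0.17 TPM at Day 16, at 0.319 ± 0.15 TPM in low glucose on 1 to 3 reads per library, and at 3.45 TPM on average at standard glucose. MYL2 differed in the opposite sense, being lower in low than in standard glucose at Day 30 (380 ± 23.8 and 537 ± 64.5 TPM, adjusted p 0.038), whereas TNNI3 was higher (968 ± 110.0 and 433 ± 39.1 TPM, adjusted p 1.32e-05). Day 30 HPLM/B27 differed from Day 30 RPMI_glcM/B27 in fewer genes, 156 (0.956%) higher and 99 (0.607%) lower in HPLM/B27 (8 and 3 as deposited). MYL2 (687 ± 134 TPM) and TNNI3 (1442 ± 77.2 TPM) were both higher there than in low glucose (adjusted p 0.00775 and 0.00669).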

How the data were processed

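RNA was measured in 16 libraries, 4 wells in each of 4 groups, and 8 of them (Day 16 RPMI/B27 and Day 30 RPMI_glcM/B27) carry the main comparison. For total RNA with strand information the authors used a SMARTer kit of Takara, with STAR 2.5.3a for alignment to hg38 plus decoys and featureCounts 2.0.3 for counting. The authors deposited TPM for 43388 genes. The annotation, the tool that made the TPM and whether counting used the strand are not given in the sources used here. Gene positions are those of RefSeq on GRCh38.p14.

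Comparing a gene's low TPM across libraries gave whole reads for 31047 of 31047 genes above 0 (tolerance 0.02 reads), or 7744768 to 11269191 reads in each of the 8 libraries, and 2113 members (12.9%) had a mean under 10 reads. Errors and p-values cover the spread between wells of 1 differentiation. Each library was divided by its median-of-ratios factor. Then log2(TPM + 1) was tested in limma 3.58.1 (R 4.3.3, trended eBayes over the 4 groups together), with Benjamini-Hochberg adjustment over 16322 genes and a threshold of 0.05. A fold change on this scale understates the change of low genes. Isoform shares were tested by exact permutation, two-sided, over 4 against 4 libraries. In data simulated for Day 30 RPMI_glcM/B27 against Day 16 RPMI/B27 on 16322 genes, 193 of 200 genes changed by 1.5 on the log2 scale were recovered, with 14 false calls. The simulation gave every gene the same dispersion and built in no shift of the abundant RNAs. Its false calls thus do not measure those in the real libraries. Members and lists were chosen with earlier results of these data known.

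Genes are named by rule: the 8 largest log2 fold changes in each direction and the 3 largest of non-coding or uncharacterised genes (past the threshold, no overlap, at least 10 reads), up to 4 members of each list by adjusted p with 1 that did not pass, both genes of each isoform pair, the study's maturation genes, and the 6 largest differences in each direction between glucose levels at Day 30. The text names part of these genes, and some items are not reported here. Promoters are from RefSeq (GRCh38.p14), without those on chromosome 8, and were matched by symbol for 10953 of 16322 genes. MCM4, the cell cycle gene that rose, lies on chromosome 8 and is thus not among the promoters searched. Alternatives were TPM as deposited, scaling to the sum of other genes, a pseudocount of 0.1, all genes above 0, at least 5 TPM, at least 10 reads, only the 2 groups, a replicate block, RNR1 as covariate, limma-voom on recovered reads and each library left out. Leaving out the libraries above 1000 TPM of RNR1 was chosen after seeing the data. Python 3.11.15, numpy 2.4.6, pandas 2.3.3, scipy 1.17.1 and matplotlib 3.10.9 were used.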

Additional observations from a re-analysis of the deposited data

Results flagged for a closer look

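The direct comparison of Day 30 RPMI_glcM/B27 with Day 30 RPMI/B27 is the test of whether a change from Day 16 differed between low and standard glucose, since both share the Day 16 libraries. Of the 136 genes named, 38 were higher and 31 lower in low glucose at an adjusted p under 0.05 (limma), against 6.38% and 5.44% of all genes. Some of these genes were named for their large difference between the media, which partly fixes the count. The higher genes, each with its log2 difference, were MYH7B (0.76), TNNI3 (1.16), RYR2 (0.20), CACNA2D1 (0.29), MPC1 (0.68), PFKFB2 (1.35), TPI1 (0.70), LDHA (0.87), ENO1 (0.82), SLC2A1 (1.17), SLC2A4 (1.23), PYGL (0.61), SDHA (0.48), SDHB (0.49), SDHD (0.37), NDUFA12 (0.57), COX5A (0.81), COX5B (0.41), FABP3 (0.63), CPT1A (0.65), ESRRA (0.84), PPARGC1A (0.86), PPARA (0.56), RXRG (0.76), CKM (1.32), CKB (1.02), SLC6A8 (0.60), SREBF1 (0.83), MCM4 (0.39), NAV3 (1.15), PTGER3 (1.67), C11orf21 (2.20), LOC107986558 (0.68), LOC105369856 (1.64), UAP1L1 (1.62), NEFL (1.56), MRPS5 (0.44) and DDIT3 (0.78). The lower genes, each with its log2 difference, were MYL2 (-0.49), LDB3 (-0.41), PDLIM5 (-0.34), CAMK2D (-0.28), PRRX1 (-0.79), TXNIP (-4.59), ARRDC4 (-3.05), PHKB (-0.23), DECR1 (-0.41), SC5D (-0.54), CDKN1A (-0.60), CDKN2B (-0.64), HIST1H3I (-1.26), FN1 (-0.66), SPARC (-0.94), COL1A1 (-0.77), HMGA2 (-0.57), RSPO3 (-0.68), GPC3 (-0.70), AFP (-1.41), APOB (-1.07), FGB (-1.48), FGA (-1.54), ALB (-1.72), FBLN1 (-0.51), TBX18 (-0.48), LOC100506664 (-0.98), SULT1E1 (-2.41), SPP1 (-1.73), ANXA1 (-1.62) and APOA2 (-1.67).

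In 20 of 272 groups of 4 libraries examined, a library lay apart from the other 3 by more than Dixon's 95% limit, where chance gives about 1 in 20. In Day 16 RPMI/B27 replicate 1 these were UAP1L1 (1.35 TPM, high) and DDIT4 (10.7 TPM, low). In Day 16 RPMI/B27 replicate 2 these were MYLK3 (97.7 TPM, low), RRAD (69.7 TPM, high), TXNIP (136 TPM, high), ARRDC4 (19.6 TPM, high), SLC2A4 (16.1 TPM, high), COX5A (69.9 TPM, low), MCM4 (23.9 TPM, low) and ACTA2 (121 TPM, low). In Day 16 RPMI/B27 replicate 3 this was SLC6A8 (11 TPM, low). In Day 30 RPMI_glcM/B27 replicate 1 these were MYH7 (2448 TPM, low) and ACTA2 (132 TPM, high). In Day 30 RPMI_glcM/B27 replicate 2 these were MCM4 (40.2 TPM, high) and NAV3 (10.5 TPM, high). In Day 30 RPMI_glcM/B27 replicate 3 these were TOP2A (44.7 TPM, low) and CCNB2 (14.4 TPM, low). In Day 30 RPMI_glcM/B27 replicate 4 these were TCAP (87.5 TPM, high), PDLIM5 (181 TPM, low) and HIST2H2BE (67.7 TPM, low). Without Day 16 replicate 2, TXNIP, ARRDC4, MYLK3, SLC2A4, RRAD, COX5A and MCM4 kept their calls, and ACTA2 passed the test at -1.63 on the log2 scale (limma adjusted p 0.033).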

How the results depend on the processing

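From Day 16 to Day 30 RPMI_glcM/B27, the genes higher numbered 532 with TPM as deposited, 1126 when scaled to the sum of other genes and 1129 without the libraries above 1000 TPM of RNR1, a setting chosen after seeing the data that left 1184 lower. Other settings stayed within 1.5 times of 2248 higher and 2273 lower, and each library left out gave 1849 to 2130 higher and 1868 to 2213 lower. Against Day 30 RPMI/B27 the counts higher and lower were 215 and 130 as deposited, 607 and 414 with the sum of other genes, 604 and 503 in a fit of only the 2 groups, and 51 and 22 without the RNR1 libraries. Leaving out each library gave 704 to 1163 and 603 to 926. In HPLM/B27 against low glucose they were 8 and 3, 66 and 31, and 2 and 0 (1247 at an unadjusted p under 0.05) without the RNR1 libraries, where fewer libraries were tested, and 76 to 168 and 47 to 83 with each library left out.

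The replicate block gave 2329 and 2306 genes from Day 16, 1012 and 899 against Day 30 RPMI/B27, and 141 and 94 for HPLM/B27. Deviations of same-numbered libraries correlated at 0.0177 to 0.221, with the best match to the own number in 3 of 4. These values do not decide whether wells were paired. The main test did not pair them because the study states no pairing. Of the genes named, the block ended the call of NPPA (adjusted p 0.0509, limma). The isoform shares higher without overlap remained 7, or 8 without Day 16 replicate 2, and sign flips of 4 differences cannot go below p = 0.125 in the exact test.

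The sign turned for ATP2A2 (-0.24 as deposited, -0.080 with the sum of other genes), RPL5 (-0.218 and -0.0611), TBX20 (-0.0699 as deposited) and NPPB (-0.0288 as deposited, -0.10 with RNR1 as covariate, -0.32 to 0.54 with libraries left out). ACADVL gave 0.0075 with the covariate, 0.0377 without the RNR1 libraries and -0.0898 to 0.0922 with libraries left out, and COL4A2 -0.0538 to 0.0017. None of these 6 passed the test as reported, TBX20 passed as higher with the covariate (0.31) and without Day 16 replicate 2 (0.30), and the cause was not tested. Without the libraries above 1000 TPM of RNR1, 18 of the 136 genes named lost their call from Day 16. Among them were SULT1E1, APOA2, SLC7A5, SLC2A1, ENO3, NDUFA1, COX7B, PPARA, POSTN and IGF2. ENO3 and PPARA also lost it with the sum of other genes. Depth limits genes of few reads.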
